A study of Mus musculus with 12 samples.

Results

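The 10 genes described here encode parts of the epithelial cell surface and skeleton: the claudins Cldn3, Cldn4, Cldn6 and Cldn7, the simple-epithelium keratins Krt8, Krt18 and Krt19, the adhesion molecules Epcam and Cdh1, and the transcription factor Grhl2. They were chosen by name from 35975 genes in the files, with earlier results of these data known. All 10 passed the filter on low counts that left 16178 genes to test. RNA was sequenced from primordial germ cell-like cells (PGCLCs), a culture model of the precursors of eggs and sperm, in 12 libraries of 4 groups with 3 biological replicates each. All groups came from the mouse embryonic stem cell line E14TG2a, grown on fibronectin in a medium with LIF, vitamin C and inhibitors of MEK and Gsk3. Priming turned the stem cells into epiblast-like cells, which then spent 4 days as floating aggregates in medium containing SCF, EGF, LIF, BMP4 and BMP8. The wild-type group was primed for 40 h (WT_40h). The other 3 groups carried a triple knockout (TKO), known from the study as the loss of the DNA methyltransferases Dnmt1, Dnmt3a and Dnmt3b, and were primed for 40 h (TKO_40h), 48 h (TKO_48h) or 96 h (TKO_96h). Wild-type cells were sequenced at 1 priming time, so TKO_96h and WT_40h differ in genotype and in priming time. The labels name no separate knockout clones, and they leave unsaid if cells were sorted before RNA extraction. Fewer cells of a type and less RNA per cell cannot be told apart in such bulk samples.

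In an epithelium, claudins form the strands of tight junctions that seal the space between cells, and Cdh1 (E-cadherin) holds neighbouring cells together at adherens junctions. Keratin filaments are built from pairs of a type II keratin, here Krt8, and a type I keratin, here Krt18 or Krt19. Grhl2, a grainyhead-like factor, is known as an activator of junction genes, Cdh1 and Cldn4 among them. The pluripotent epiblast is itself an epithelium, and mouse primordial germ cells are known to keep E-cadherin and Epcam on their surface.

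All 10 genes had their lowest group mean in TKO_96h. For 5 of them, Krt8, Krt18, Krt19, Cldn6 and Cldn7, the level there was lower than in TKO_40h by more than 3 on the log2 scale, while Cdh1 changed by -0.48 ± 0.11 (log2 fold change ± SE, as throughout). The means were highest in TKO_48h for 7 genes and in TKO_40h for the other 3, Grhl2, Epcam and Cdh1. Levels are given below as CPM, counts scaled to the same library total, in replicates 1, 2 and 3 of each group, and a gene was called where its adjusted p from edgeR's quasi-likelihood test was below 0.05 over all genes tested.

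**Figure D1:**
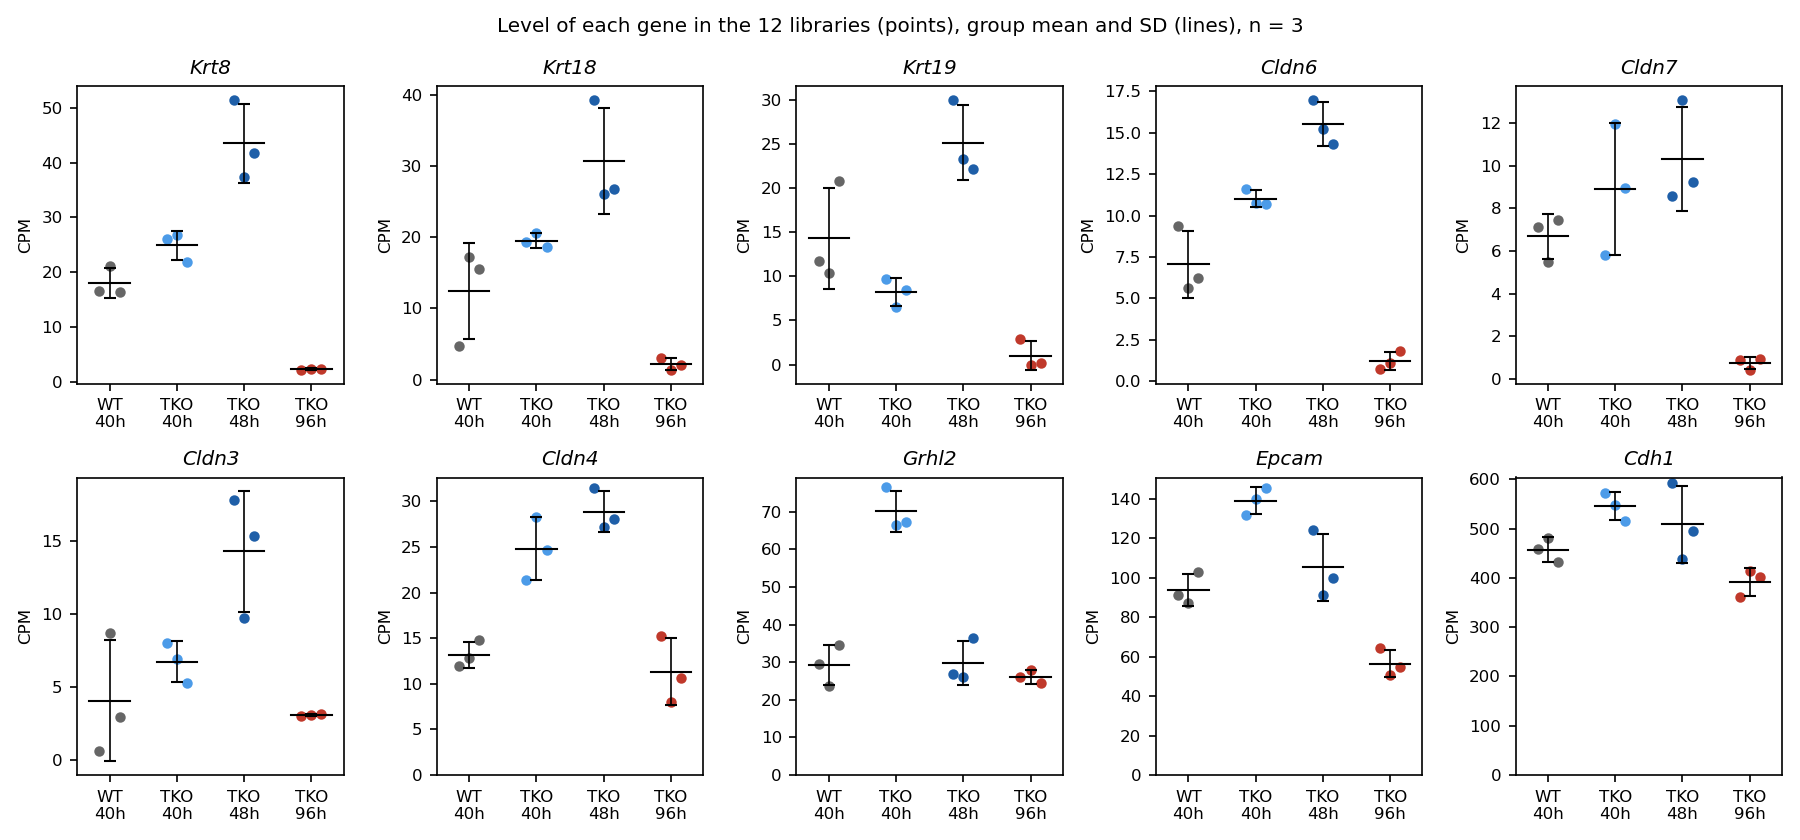
Level of each of the 10 genes in CPM (vertical axes, each starting at 0 or just below) in the 4 groups (horizontal axis); points are the 12 libraries, and lines are the group mean and SD (n = 3). The keratins, Cldn6 and Cldn7 lie near 0 in TKO_96h, Grhl2 is high in TKO_40h alone, and Cdh1 varies between 360 and 592 CPM.

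The libraries held 6570180 to 9114128 estimated counts in all, so that 3 counts correspond to 0.334 to 0.515 CPM. The messenger RNAs of the targeted enzymes were lower in the knockout libraries, with Dnmt1 at 64.9 to 152 CPM against 426 to 450 in wild type, Dnmt3a at 25.4 to 73.1 against 358 to 436, and Dnmt3b at 13.4 to 55.4 against 157 to 215. Replicate 1 of TKO_48h stood apart with the fewest genes at 10 counts or more (13562, against up to 15459) and the largest share of counts in its top 10 genes (14.6%, against 9.18% to 12.7%). Replicate 1 of TKO_96h stood apart with 3.06% of its counts in Lars2 and Ccnb1ip1, against 1.3% to 1.93% in the others. Calls of the 10 genes that changed without both of these libraries are given with both values.

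The sequence before the start of a gene is shown for 3 members that a reader may want to compare, because their windows hold short words bound by regulators of epithelial genes. RefSeq windows of 300 bases around the start (assembly GRCm38.p6) were matched for 7 of the 10 members. The word CAGGTG, the E-box that Zeb and Snail repressors are known to bind, was present on either strand in 7 of the 8 windows of these members, against 20.2% of all 32817 windows. Cldn7 has 2 windows, and the word was in the second only. Before the GENCODE start of the gene, the word was present only for Krt18, Cldn4 and Epcam, the 3 members shown. For Cldn3, Cldn6, Cldn7 and Krt8, every match lay past that start. The grainyhead core ACCGGT was present for 1 member, Epcam, against 2.33% of all windows, and the longer AACCGGTT for 0 members, against 0.146%. The words were chosen after the windows had been read, and a match is a description of the letters, not of a bound site. The runs end at the base before the GENCODE transcript, are written in the direction of transcription, and carry E-boxes (CAGGTG or its complement CACCTG) and grainyhead cores (ACCGGT) in capitals. They are chr15:102027966-102028179, plus strand, for Krt18, chr5:134946935-134947184, minus strand, for Cldn4, and chr17:87635729-87635978, plus strand, for Epcam.
Krt18: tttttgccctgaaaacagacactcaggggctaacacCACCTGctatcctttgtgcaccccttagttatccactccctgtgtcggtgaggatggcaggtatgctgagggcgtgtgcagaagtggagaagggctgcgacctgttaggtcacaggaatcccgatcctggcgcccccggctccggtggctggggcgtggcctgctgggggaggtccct
Cldn4: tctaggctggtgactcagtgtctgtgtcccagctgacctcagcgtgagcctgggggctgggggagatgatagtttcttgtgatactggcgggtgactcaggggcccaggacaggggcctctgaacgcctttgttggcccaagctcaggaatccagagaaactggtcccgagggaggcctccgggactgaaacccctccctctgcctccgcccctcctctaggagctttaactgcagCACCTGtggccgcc
Epcam: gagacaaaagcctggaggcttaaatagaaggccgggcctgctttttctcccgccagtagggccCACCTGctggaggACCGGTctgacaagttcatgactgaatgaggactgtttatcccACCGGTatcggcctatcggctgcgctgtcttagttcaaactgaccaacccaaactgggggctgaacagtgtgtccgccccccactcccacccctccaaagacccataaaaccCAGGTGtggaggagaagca
The Epcam run holds 2 grainyhead cores and 2 E-boxes, the Cldn4 run 1 E-box close to the transcript, and the Krt18 run 1 E-box far from it.

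Grhl2, the transcription factor, was high in TKO_40h only. Its level was 29.4, 23.8 and 34.6 CPM in WT_40h, 76.5, 66.5 and 67.3 in TKO_40h, 26.8, 25.9 and 36.5 in TKO_48h, and 26, 28 and 24.4 in TKO_96h. Every TKO_40h library lay above every other library, and the remaining 3 groups overlapped. TKO_40h differed from WT_40h by 1.26 ± 0.17 (adjusted p = 0.00024), TKO_48h from TKO_40h by -1.23 ± 0.17 (adjusted p = 0.00028), and TKO_96h from TKO_40h by -1.42 ± 0.17 (adjusted p = 1.3e-05). These contrasts share the TKO_40h libraries. TKO_96h and TKO_48h differed by -0.19 ± 0.17 (adjusted p = 0.5). The first 2 calls ended when differences in transcript length between libraries were corrected for (adjusted p = 0.075 and 0.096); over all alternatives tried, the adjusted p ranged from 6.4e-10 to 0.075 and from 9.4e-10 to 0.096. An exon of Gm16136 on the opposite strand overlaps Grhl2 by 124 bases, and the strand setting used in counting is not given in the sources used here.

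Cdh1, the E-cadherin gene, had the highest level of the 10 in CPM, and its changes were small. Its level was 459, 482 and 432 CPM in WT_40h, 573, 547 and 516 in TKO_40h, 592, 438 and 496 in TKO_48h, and 360, 414 and 403 in TKO_96h. The TKO_96h libraries lay below those of each other group, and the TKO_48h libraries overlapped both WT_40h and TKO_40h. TKO_96h was lower than TKO_40h (-0.48 ± 0.11, adjusted p = 0.0067) and lower than TKO_48h (-0.37 ± 0.11, adjusted p = 0.021). The second call ended without replicate 1 of TKO_48h (-0.25, adjusted p = 0.1), without replicate 1 of TKO_96h (adjusted p = 0.073) and without both (adjusted p = 0.2), within a range of 0.0029 to 0.2 over the alternatives. TKO_40h exceeded WT_40h in every replicate, by 0.25 ± 0.11, which did not pass the test (adjusted p = 0.26).

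Epcam, a surface protein of epithelial and pluripotent cells, followed the order TKO_40h, TKO_48h, WT_40h, TKO_96h. Its level was 91, 87.2 and 103 CPM in WT_40h, 132, 140 and 146 in TKO_40h, 124, 91.2 and 100 in TKO_48h, and 64.2, 50.5 and 54.9 in TKO_96h. TKO_40h lay above and TKO_96h below all other libraries, and WT_40h and TKO_48h overlapped. TKO_96h was lower than TKO_40h by a log2 fold change of -1.30 ± 0.13 (adjusted p = 1.2e-06) and lower than TKO_48h by -0.90 ± 0.13 (adjusted p = 7e-05). TKO_40h was higher than WT_40h (0.57 ± 0.13, adjusted p = 0.017), a call that ended without any 1 of 4 libraries, replicates 2 and 3 of TKO_40h and replicates 1 and 2 of WT_40h (adjusted p = 0.067 to 0.1, over all alternatives 0.00051 to 0.13). The difference of TKO_48h from TKO_40h, -0.41 ± 0.13, missed the threshold (adjusted p = 0.071) and passed it without replicate 1 of TKO_48h (-0.54, adjusted p = 0.024, over all alternatives 0.0079 to 0.23).

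Set against transcript length, where genes can be compared with each other, Cdh1 stood at 113, 133, 123 and 99.1 CPM per kb on average in WT_40h, TKO_40h, TKO_48h and TKO_96h. The same means were 63.5, 94.1, 70 and 36.3 CPM per kb for Epcam and 11.3, 29.1, 13.2 and 11.4 for Grhl2. The adhesion genes thus had the highest levels of the 10 in every group on this scale.

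Among the claudins, Cldn6 and Cldn7 were below all wild-type libraries in TKO_96h, while Cldn3 and Cldn4 overlapped them. Cldn6, a claudin of embryonic epithelia, was at 9.35, 5.61 and 6.22 CPM in WT_40h, 11.6, 10.8 and 10.7 in TKO_40h, 17, 15.2 and 14.4 in TKO_48h, and 0.755, 1.12 and 1.85 in TKO_96h. No 2 groups overlapped for Cldn6. Cldn7 was at 7.12, 5.47 and 7.46 CPM in WT_40h, 5.81, 12 and 8.96 in TKO_40h, 8.59, 13.1 and 9.23 in TKO_48h, and 0.906, 0.42 and 0.923 in TKO_96h. The first 3 groups overlapped for Cldn7, and TKO_96h, with 3 to 7 counts a library, lay below them all. Relative to TKO_40h, TKO_96h was lower by -3.12 ± 0.37 for Cldn6 (adjusted p = 1e-05) and by -3.54 ± 0.45 for Cldn7 (adjusted p = 2.6e-05). Neither gene passed the test between TKO_40h and WT_40h (0.64 ± 0.31 and 0.41 ± 0.37, adjusted p = 0.33 and 0.67).

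Cldn3 and Cldn4, neighbours 39.3 kb apart on chromosome 5, stayed closer to the wild-type level in TKO_96h. Cldn4 was at 11.9, 12.8 and 14.8 CPM in WT_40h, 21.4, 28.3 and 24.7 in TKO_40h, 31.4, 27.2 and 28.1 in TKO_48h, and 15.3, 7.98 and 10.7 in TKO_96h. The 40 h and 48 h knockout libraries lay above all others, and TKO_96h overlapped WT_40h. Cldn4 was higher in TKO_40h than in WT_40h (0.92 ± 0.23, adjusted p = 0.032), but this call ended without any 1 of the 6 libraries compared (adjusted p = 0.058 to 0.15, over all alternatives 0.007 to 0.15). It was lower in TKO_96h than in TKO_40h (-1.14 ± 0.23, adjusted p = 0.0023). Cldn3 was at 0.557, 8.68 and 2.9 CPM in WT_40h, 8.02, 6.91 and 5.24 in TKO_40h, 17.9, 9.76 and 15.3 in TKO_48h, and 3.02, 3.08 and 3.17 in TKO_96h. The wild-type replicates alone spanned the range from below TKO_96h to above TKO_40h, and 3 of the 4 comparisons did not pass the test for Cldn3. The fourth, TKO_96h against TKO_48h, gave -2.20 ± 0.57 (adjusted p = 0.0094) and was not called without both libraries that stand apart (adjusted p = 0.057, over all alternatives 1.9e-05 to 0.057).

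All 3 keratins were called lower in TKO_96h than in TKO_40h and in TKO_48h. Krt8, the type II keratin, was at 16.5, 21.1 and 16.4 CPM in WT_40h, 26, 26.9 and 21.9 in TKO_40h, 51.5, 37.3 and 41.8 in TKO_48h, and 2.11, 2.38 and 2.37 in TKO_96h. No 2 groups overlapped for Krt8, and the TKO_96h replicates were nearly equal. Krt18, its type I partner 23.7 kb away on chromosome 15, was at 4.79, 17.2 and 15.5 CPM in WT_40h, 19.4, 20.6 and 18.6 in TKO_40h, 39.3, 26.1 and 26.8 in TKO_48h, and 3.02, 1.4 and 2.11 in TKO_96h. Replicate 1 of WT_40h was low for Krt18 and for Cldn3, but not for Krt8. TKO_96h was lower than TKO_40h by -3.43 ± 0.24 for Krt8 (adjusted p = 5.9e-09) and by -3.16 ± 0.40 for Krt18 (adjusted p = 2.4e-05), and lower than TKO_48h by -4.24 ± 0.24 (adjusted p = 1.5e-10) and -3.82 ± 0.40 (adjusted p = 1.6e-06). TKO_48h was higher than TKO_40h for Krt8 (0.81 ± 0.19, adjusted p = 0.017), a call that ended without replicate 1 or 3 of TKO_40h or replicate 1 of TKO_48h (adjusted p = 0.059, 0.088 and 0.08) and without both libraries that stand apart (0.67, adjusted p = 0.058, over all alternatives 0.005 to 0.088). For Krt18 that difference was 0.65 ± 0.33 (adjusted p = 0.29).

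Per length, the group means of Krt8 and Krt18 were of similar size. The mean level was 10.2 CPM per kb for Krt8 and 9.97 for Krt18 in WT_40h, 14 and 15.6 in TKO_40h, 24.5 and 24.5 in TKO_48h, and 1.3 and 1.73 in TKO_96h. Krt19, the other type I keratin, was at 14.7, 9.1, 26.8 and 1.31 CPM per kb in these groups. Krt18 and Krt19 together thus exceeded Krt8 in every group mean. Of the Krt19 counts over all libraries, 41.5% were assigned to Krt19-203, a transcript not annotated as protein-coding. The Krt8 to Krt18 ratio per length was 0.90 ± 0.062 (SD, n = 3) in TKO_40h and 1.01 ± 0.086 in TKO_48h. It was 2.43, 0.865 and 0.751 in the WT_40h replicates, the first being the library with few Krt18 counts, and 0.509, 1.203 and 0.795 in the TKO_96h replicates, where counts were low. Of the 31-base words of Krt8, 32.3% also occur in other genes, among them the pseudogenes Krt8-ps and Krt74, which held 10 and 15 counts over all 12 libraries. In TKO_96h, where Krt8 was low, each was 14% and 10.9%, respectively, of its own counts and those of Krt8 added together, against less than 1% each in the other groups. For Krt18 the shared part was 11.4%, and its 3 copies held 0, 0 and 3 counts. How the counting split reads between them is uncertain.

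Krt19, the smallest type I keratin, was highest in TKO_48h and lowest in TKO_96h, as were Krt8 and Krt18. It differed from them in the order of the groups between, with a higher mean in WT_40h than in TKO_40h. Its level was 11.7, 10.4 and 20.9 CPM in WT_40h, 9.68, 6.51 and 8.5 in TKO_40h, 30.1, 23.3 and 22.2 in TKO_48h, and 2.87, 0 and 0.132 in TKO_96h. It was the only member whose TKO_40h libraries all lay below WT_40h, although that difference of -0.80 ± 0.48 did not pass the test (adjusted p = 0.47). TKO_96h was lower than TKO_48h (-4.69 ± 0.62, adjusted p = 2.3e-05) and lower than TKO_40h (-3.08 ± 0.63, adjusted p = 0.0026). In TKO_96h the gene had 19, 0 and 1 counts, and replicate 1 decided the size of the change: without it the fitted log2 fold changes were -8.22 and -6.61, fits to libraries at 0 and 1 counts that bound nothing. The difference of TKO_48h from TKO_40h, 1.61 ± 0.49, missed the threshold (adjusted p = 0.058) and passed it without both libraries that stand apart (adjusted p = 0.01) and with the replicate number as a block (adjusted p = 0.046, over all alternatives 2.8e-05 to 0.31).

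**Figure D2:**
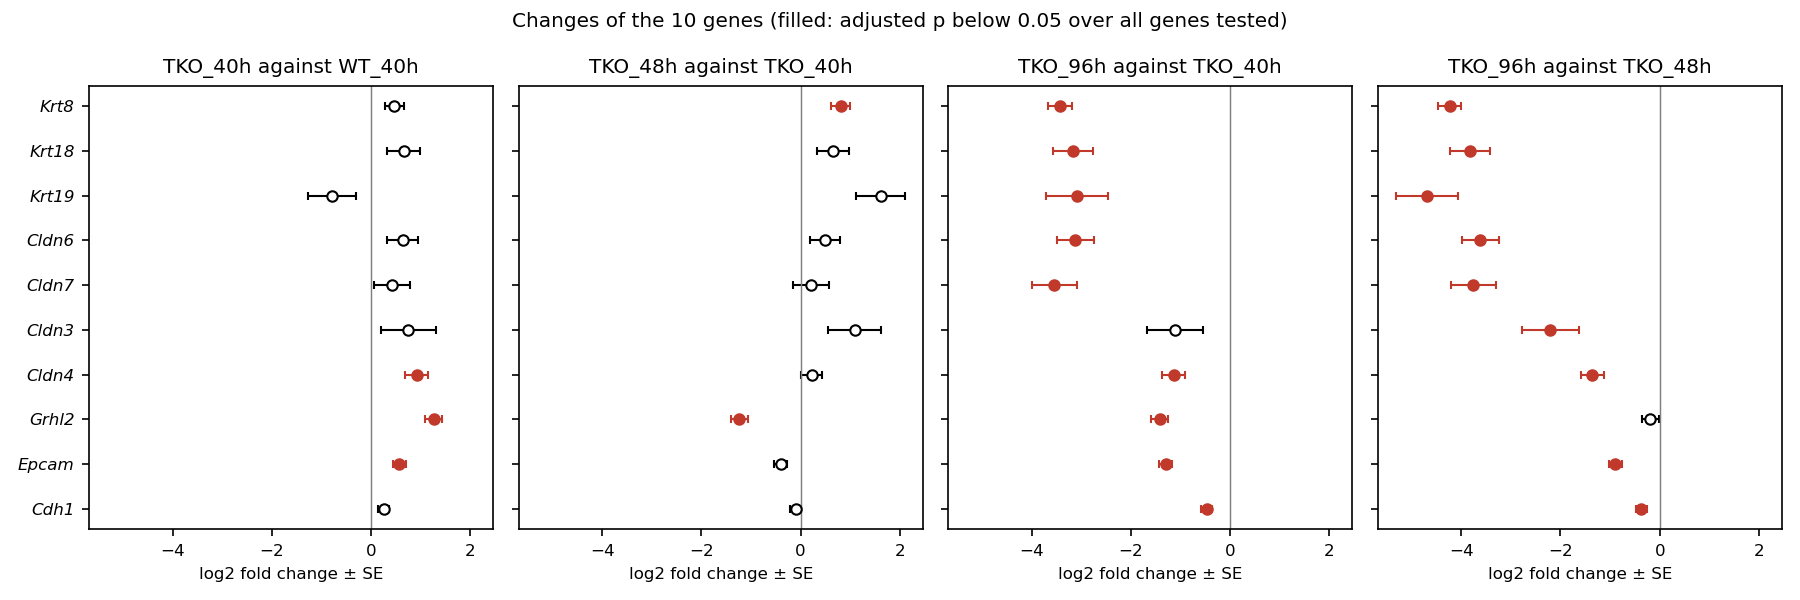
Log2 fold change with its SE (horizontal axis) of each of the 10 genes (vertical axis) in the 4 comparisons, positive where the first-named group was higher; filled red points passed an adjusted p below 0.05 over all genes tested. All 10 genes lie left of 0 in both comparisons with TKO_96h, at -0.48 to -3.54 against TKO_40h.

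Counted together, 3 of the 10 genes were called higher in TKO_40h than in WT_40h (Grhl2, Cldn4 and Epcam) and 0 lower, where 3.1% of all genes tested were called, 1.63% higher and 1.48% lower. Their median log2 fold change was 0.60, against -0.001 over all genes, and the groups did not overlap for 7 genes that were higher and 1 that was lower, against 13.1% and 12.6% of all genes. In TKO_48h against TKO_40h, Krt8 was called higher and Grhl2 lower, where 5.49% of all genes were called, 2.57% higher and 2.92% lower. In TKO_96h against TKO_40h, 9 of the 10 were called lower, the exception being Cldn3 (-1.12 ± 0.57, adjusted p = 0.23), where 7.2% of all genes were called lower and 4.94% higher. The median was -2.25 against 0 over all genes, and the groups did not overlap for 10 of the 10, against 16.9% of all genes. In TKO_96h against TKO_48h, again 9 were called lower, the exception being Grhl2, where 10.7% of all genes were called lower and 8.82% higher, and the median was -2.91. Without both libraries that stand apart this count was 7, since Cdh1 and Cldn3 were no longer called, and the count against TKO_40h was again 9. Both comparisons share the TKO_96h libraries. The 10 genes were chosen with earlier results of these data known, so these counts describe them and do not test them against all genes.

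Correlations between members are a description over 12 libraries that share their group structure. Krt8 and Cldn6 had a Pearson correlation of log2 CPM of 0.974, and of 0.84 over the 9 libraries without TKO_96h. For Krt8 and Krt18 the values were 0.949 and 0.818. Among the claudins they were 0.945 and 0.587 for Cldn6 and Cldn7, 0.709 and 0.735 for Cldn3 and Cldn4, and 0.772 and 0.837 for Cldn4 and Cldn6. For Grhl2 and Epcam they were 0.725 and 0.836, and for Krt19 and Grhl2 0.194 and -0.661. Among 11437 other tested genes averaging 5 CPM or more, those most like Krt8 were Plod2 (0.988), a collagen lysyl hydroxylase, Pkm (0.988), a glycolytic enzyme, and Gm2a (0.984). Cldn6 was most like Gnas (0.98) and also like Plod2 (0.976), Cldn7 most like Irf1 (0.979), Krt18 most like Furin (0.974) and Krt19 most like Rnf128 (0.979). Cldn4 was most like H2-K1 (0.973) and Elf3 (0.952), Cdh1 most like Dag1 (0.972), Epcam most like Tfpi and Peg10 (both 0.966), Grhl2 most like Trim44 (0.945) and Cldn3 most like Polg (0.911).

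Other genes of the same structures were read from lists. Of all genes tested, 1.63% were called higher and 1.48% lower in TKO_40h against WT_40h, and 2.57% and 2.92% in TKO_48h against TKO_40h. The shares were 4.94% and 7.2% in TKO_96h against TKO_40h, and 8.82% and 10.7% in TKO_96h against TKO_48h. Of 19 tested genes of tight junctions and polarity, 3 were called higher in TKO_40h than in WT_40h, among them Ocln (0.87, adjusted p = 0.023) and F11r (0.72, adjusted p = 0.038), and Magi1 was called lower (-0.52, adjusted p = 0.032). The calls of these named genes ended without single libraries, 5 of 6 for Ocln and F11r and 6 of 6 for Magi1. The median log2 fold change of the list in that comparison was 0.013. Of the 19, 6 were called lower and 1 higher in TKO_96h than in TKO_40h, with a median log2 fold change of -0.35. Patj, a scaffold of the Crumbs polarity complex, was at 46.6, 59 and 52.3 CPM in TKO_40h and at 11.6, 16.7 and 14.6 in TKO_96h (-1.88 ± 0.17, adjusted p = 3.7e-07). Tjp1, which encodes the scaffold ZO-1, was at 292, 270 and 290 CPM and at 159, 199 and 185 (-0.65, adjusted p = 0.00053). Tjp3 was lower than in TKO_48h (-2.16, adjusted p = 8.6e-05), at 2.72, 3.64 and 6.86 CPM against 22.3, 18.9 and 18.5. Of 18 genes of adherens junctions and desmosomes, 6 were called lower and 1 higher than in TKO_40h, and 10 lower and 0 higher than in TKO_48h (medians -0.30 and -0.73). Between TKO_48h and TKO_40h, 5 of these 18 were called higher, among them Cdh3, the P-cadherin gene, at 92.6, 75 and 92 CPM against 34.3, 43.5 and 51.6 (1.00, adjusted p = 0.0012). Of the other called genes, Pkp2, Pkp3 and Evpl, which encode desmosomal and cornified-envelope proteins, each lost the call without any 1 of 3 libraries (adjusted p = 0.062 to 0.077, 0.061 to 0.1 and 0.089 to 0.1). Without both libraries that stand apart, Evpl (adjusted p = 0.067) and Pkp3 (adjusted p = 0.05, just over the threshold) also were not called. Over all alternatives the adjusted p was 0.0035 to 0.088 for Pkp2, 0.0019 to 0.26 for Pkp3 and 0.006 to 0.1 for Evpl. Of 6 tested other claudins, 0 were called in each of the 4 comparisons by edgeR and by DESeq2, with 1, 2, 1 and 0 at an unadjusted p below 0.05. Cldn12 had group means of 22.6 to 24.8 CPM, and Cldn34c1 of 2.63 to 6.44.

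Among 17 epithelial regulators, splicing factors and surface proteases, 2 were called higher in TKO_40h than in WT_40h, Esrp1 and Elf3, where 1.63% of all genes were. Esrp1, an epithelial splicing factor, was, like Grhl2, higher in TKO_40h than in WT_40h, at 21.4, 28.8 and 26 CPM in WT_40h, 58.2, 57.3 and 53.3 in TKO_40h, 37.8, 49.7 and 50.4 in TKO_48h, and 12.7, 9.52 and 6.33 in TKO_96h. The difference was 1.15 ± 0.20 at 40 h (adjusted p = 0.0027) and -2.57 ± 0.22 between TKO_96h and TKO_40h (adjusted p = 9.4e-08). In the whole list, 2 genes were called higher and 2 lower in TKO_96h than in TKO_40h (median -0.24), and 3 higher and 7 lower than in TKO_48h (median -0.64). Of all genes, 4.94% were called higher and 7.2% lower than in TKO_40h, and 8.82% and 10.7% than in TKO_48h. Elf3 was at 37.5, 34.3 and 44.4 CPM in WT_40h and 53.2, 59.4 and 61.4 in TKO_40h (0.59, adjusted p = 0.02), a call that ended without any 1 of 4 of the 6 libraries (adjusted p = 0.0049 to 0.14 over all alternatives). Klf4, a pluripotency and epithelial factor, was higher in TKO_96h, at 69, 75 and 91.8 CPM against 43.8, 38.9 and 50.6 in TKO_40h (0.82, adjusted p = 0.0011). Of 7 other keratins, Krt42 was called higher in TKO_96h than in TKO_40h, at 11.5, 5.04 and 11.5 CPM against 0.277, 1.06 and 0 (4.36 ± 0.90, adjusted p = 0.0027).

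Of 14 tested mesenchymal genes and repressors of epithelial genes, 1 was called higher (Vim) and 1 lower (Mmp2) in TKO_96h than in TKO_40h, with a median of -0.07. Of all genes tested, 4.94% were called higher and 7.2% lower in this comparison, so these counts lay near the shares over all genes. Vim, an intermediate filament gene of mesenchymal cells, was at 86.8, 96.5 and 98.6 CPM in TKO_40h, 88, 66.1 and 87.1 in TKO_48h, and 157, 170 and 230 in TKO_96h (0.98 ± 0.14 against TKO_40h, adjusted p = 0.00011). Zeb2, which binds E-boxes, was higher than in TKO_48h (1.00, adjusted p = 0.0062), at 21.9, 18.8 and 18.7 CPM against 12.2, 11 and 6.68. Zeb1 was also higher there (0.68, adjusted p = 0.014) and is named after its values were seen. Neither Zeb gene was called against TKO_40h, and both had their lowest mean in TKO_48h. In WT_40h, TKO_40h, TKO_48h and TKO_96h the means were 20.3, 17.7, 9.95 and 19.8 CPM for Zeb2. For Zeb1 they were 35.7, 28.1, 22.55 and 36.1 CPM. The Snail gene Snai1 went the other way, at 0.48, 2.25, 1.86 and 0.22 CPM, and was not called against TKO_40h. Fn1 was called lower in TKO_96h than in TKO_48h (-0.57), a call that ended with the length correction (adjusted p = 0.13). Its means were 1079, 812, 1124 and 759 CPM in WT_40h, TKO_40h, TKO_48h and TKO_96h, and it was not called against TKO_40h.

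**Figure D3:**
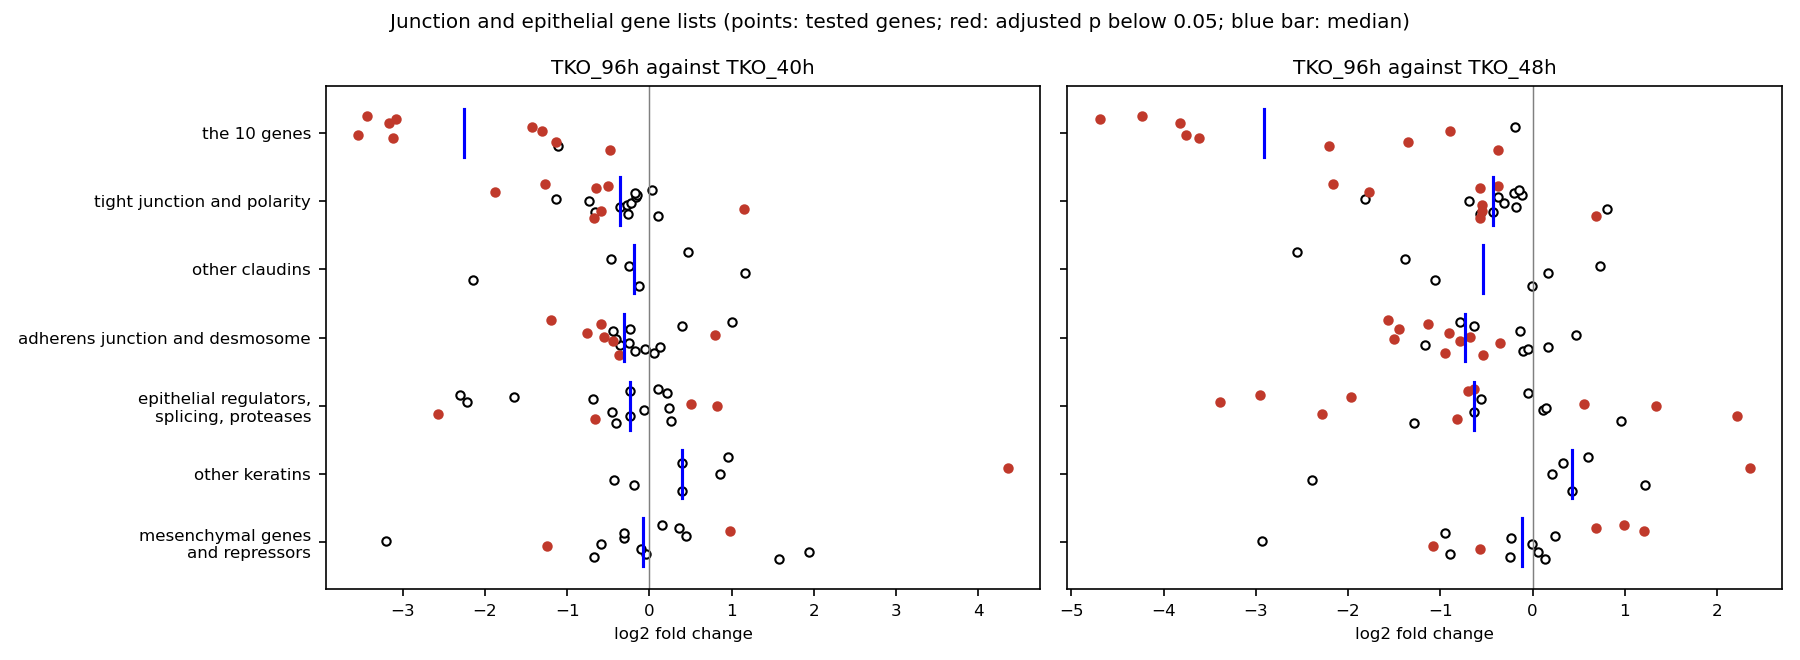
Log2 fold change (horizontal axis) of the tested genes of each list (vertical axis) in TKO_96h against TKO_40h and against TKO_48h; red points passed an adjusted p below 0.05, open points did not, and blue bars are medians. The median of the 10 genes is -2.25 and -2.91, and the medians of the 6 pathway lists lie between -0.73 and 0.42.

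Marker lists of the cell types that such aggregates could hold were read in the same libraries, and their part in the results was not tested. The germ cell list (10 genes, none at 0) summed to between 314 and 348 CPM in WT_40h, between 329 and 378 in TKO_40h, between 372 and 381 in TKO_48h and between 279 and 297 in TKO_96h. In TKO_96h against TKO_40h, 4 of the 10 were called lower and 0 higher, where 7.2% of all genes tested were called lower. The log2 fold change was above 0 for 5 of them and below 0 for 5, with a median of 0.03. Against TKO_48h, 4 were called lower and 1 higher (median -0.41), where 10.7% and 8.82% of all genes tested were. In the same order of groups, the trophoblast list summed to 47 to 55.1, 88 to 92.9, 68.9 to 83.4 and 44.7 to 58 CPM, and so was higher in every TKO_40h and TKO_48h library than in the other groups; its median log2 fold change was -1.02 in TKO_96h against TKO_40h and -0.16 against TKO_48h. Of its 10 genes, Prl3d1 was at 0 in all groups and Tpbpa in all but TKO_40h, and 3 of 7 tested were called lower in TKO_96h than in TKO_40h. The endoderm list summed to 59.8 to 76.7, 92.8 to 100, 61.5 to 92.6 and 21.8 to 50.5 CPM, with Afp and Apoa1 at 0 in TKO_96h and 3 of 11 tested called lower than in TKO_40h. Its median log2 fold change was -1.60 in TKO_96h against TKO_40h and -1.14 against TKO_48h. A large part of this sum was Cubn, with group means of 33.6, 49.3, 28.3 and 16.3 CPM. In TKO_96h, Cubn was at 24.9, 4.06 and 19.8 CPM. Afp and Apoa1 were low elsewhere too, with group means of 1.62 to 3.33 and 2.28 to 2.95 CPM. The surface ectoderm list summed to 33 to 40.5, 43.1 to 47.4, 48.1 to 51.9 and 43.9 to 61.1 CPM, with Krt14 at 0 in the 3 knockout groups and Krt5 and Krt15 also at 0 in TKO_96h. Most of this sum was Grhl3, with group means of 31.5, 40.2, 42.9 and 47.35 CPM, a gene also in the list of epithelial regulators. Of its 4 tested genes, 0 were called in TKO_96h against TKO_40h. The mesoderm list stayed between 6.91 and 21.7 CPM in all libraries. The neural list was highest in TKO_96h, at 218 to 249 CPM against 125 to 165 elsewhere. In the order of groups used above, Nes had means of 51.7, 49.3, 74.9 and 101 CPM, and Tubb3 of 21.2, 19.2, 21 and 51.3. Sox1 (47.3, 39.6, 27.9 and 40.2) and Pax6 (35.4, 27.4, 29.8 and 33.4) had their highest mean in WT_40h. The sum of the pluripotency list also was highest in TKO_96h, at 2450 to 2730 CPM against 1660 to 2360. Of its 7 genes, 5 were called higher and 1 lower than in TKO_40h (median 0.455), and 2 higher and 1 lower than in TKO_48h (median 0.05). The shares over all genes tested were 4.94% higher and 7.2% lower against TKO_40h, and 8.82% and 10.7% against TKO_48h. The means in TKO_96h and TKO_40h were 794 and 525 CPM for Pou5f1 and 776 and 518 for Zfp42. Klf2, at 99.7 and 173 CPM, and Nanog, at 261 and 290, went the other way.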

How the data were processed

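The files hold 1 table of estimated counts, effective lengths and TPM per transcript for each of the 12 libraries, which the authors deposited. Libraries were made with a stranded total-RNA kit (SMARTer Stranded Total RNA-Seq Pico), per the labels' protocols, and reads were processed with Trim Galore 0.6.2 and kallisto (version not given) on GRCm38/mm10, per the submitters' processing notes. The deposited estimated counts (expected counts) were summed over the transcripts of each gene by the GENCODE annotation, rounded to whole numbers and tested with edgeR 4.0.16 in R 4.3.3: TMM scaling, filterByExpr (at least 10 counts, 15 in all), quasi-likelihood test over all 12 libraries, Benjamini-Hochberg adjustment over 16178 genes, threshold 0.05. The SE is the log2 fold change divided by the root of the test's F statistic. Of the transcripts, 116728 of 119414 matched the annotation, and 2.68% to 4.32% of the counts of a library did not. The deposited TPM values were not used. The effective lengths, another value that the authors deposited, served for levels per length and for a length offset.

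The members and gene lists were chosen with earlier results of these data known. Named beside the members are, from each pathway list and comparison, up to 4 called genes of smallest adjusted p, the 2 most abundant genes of a list with none called, and the 3 genes most like each member. Some genes that this rule names are not reported here. Alternatives were RLE scaling, DESeq2 1.42.0, no filter, a replicate block, the length offset, fits to the groups compared only and each library left out. Leaving out both libraries that stand apart was added after seeing the data. Over 18 pairs of same-numbered libraries, the correlation of deviations from the group means was -0.0597 to 0.0507, so the numbers were not taken to pair the samples. On simulated data, 61% to 77% of genes changed by 2-fold and 94% to 97% of those changed by 4-fold were recovered. Of the calls on the simulated data, 5% to 7.7% were false, the most for TKO_96h against TKO_40h. The labels do not say which cultures the replicates came from, so p-values measure the spread between these samples. Pals1 of the polarity list was not matched.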

Additional observations from a re-analysis of the deposited data

How the results depend on the processing

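The 9 members lower in TKO_96h than in TKO_40h were 9 under every alternative run. Correction for effective lengths gave 77 genes called in TKO_40h against WT_40h (main analysis 502), 203 in TKO_48h against TKO_40h (888), 830 in TKO_96h against TKO_40h (1965) and 1638 in TKO_96h against TKO_48h (3157), and 0, 0, 9 and 8 members. For TKO_40h against WT_40h, DESeq2 called 785 genes, the fit without a filter 787 and the fit to these groups only 1278. Leaving out 1 library gave 181 to 217, 324 to 1106, 1210 to 1676 and 2344 to 2990 genes, and 1 to 2, 1 to 2, 9 and 8 to 9 members, against 3, 2, 9 and 9. Without a filter, 4 members were called in TKO_48h against TKO_40h. With the replicate block the counts were 520, 903, 2024 and 3175 genes. Dsg2 in TKO_40h against WT_40h turned to -0.055 with the length correction. For single named genes, 1111 values kept direction and call, 107 lost the call, 9 gained it and 1 reversed; where not stated beside the result, the cause was not tested. Low counts in TKO_96h limit Krt19 (19, 0 and 1 counts), Cldn7 (6, 3 and 7) and Cldn6 (5, 8 and 14).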
